A study of Homo sapiens with 9 samples.

Results

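The transcriptome of 786-O, a line established from a primary clear cell renal cell carcinoma (ccRCC), was compared with that of HK2, an immortalized line derived from the proximal tubule of a normal kidney. The members are all genes whose counts averaged 50 or more across the 6 libraries of these lines, 12843 of the 28395 genes in the table. Each line was represented by 3 of the 9 RNA-seq libraries of the series, and the remaining 3 came from 786-M1A, a metastatic derivative of 786-O, which entered the fit but is not compared here. Both lines are labelled parental, with no treatment given, and had been grown stably in Plasmax, a medium modelled on the nutrients of human serum. The study asked how metabolism, and the catabolism of branched-chain amino acids in particular, changes as renal cancer progresses. The libraries came from replicate dishes plated the day before extraction, so that the p-values below measure the spread between dishes of a line. With 1 line on each side, differences of disease state, of donor, of copy number and of the way each line was established cannot be told apart.

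The proximal tubule is the nephron segment that reabsorbs most of the filtered glucose, amino acids and proteins, and it is the cell from which ccRCC is thought to arise. Most ccRCC tumours lose the function of VHL, the substrate receptor of a ubiquitin ligase that marks the alpha subunits of the hypoxia-inducible factors (HIF) for destruction once prolyl hydroxylases have modified them. Stable HIF subunits pair with ARNT and switch on genes of glucose uptake, lactate production, blood vessel growth and pH control, and the cells characteristically fill with lipid and glycogen.

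Total counts per library ranged from 30212291 to 45362428, and the biological coefficient of variation was 3.93%. Pearson correlations of log2 values across genes were 0.997 to 0.998 within a line and 0.746 to 0.749 between the lines. In edgeR's quasi-likelihood test with Benjamini-Hochberg adjustment, 10824 of the 12843 genes differed between the lines (84.3%), of which 5333 were higher in 786-O (41.5%) and 5491 lower (42.8%). A difference of at least 2-fold was called for 2962 genes (23.1%), 1173 of them higher (9.13%) and 1789 lower (13.9%). The ranges of the lines, over 3 libraries each, were disjoint for 10970 genes (85.4%). Because calls are so frequent, each group of genes below is read against these shares and against the median log2 fold change of all tested genes, which was -0.012 with quartiles of -0.511 and 0.445. All log2 fold changes are 786-O minus HK2, and levels are CPM, the count of a gene relative to the TMM-scaled total of its library, which are compared between lines for a gene and never between genes.

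The labelled identity of the lines was checked against marker genes. The summed level of 7 ccRCC markers, 5 of them tested, was 1568 to 1657 CPM in HK2 and 5347 to 5469 CPM in 786-O. Most of both sums was VIM, the vimentin gene, so they say little of the other members. EGLN3 and CD70 were higher in 786-O and PAX8 was not called different. CA9, a defining marker, had 0 counts in HK2 and at most 0.071 CPM in 786-O. Of 12 proximal tubule markers only 2 were tested, ANPEP and GGT1, and the set summed to 109 to 114 CPM in HK2 and 193 to 199 CPM in 786-O. LRP2 (megalin), SLC22A6 and SLC22A8 had 0 counts in both lines and CUBN (cubilin) at most 1.07 CPM in any library. Most differentiated markers of the labelled tubule cell were thus absent or too low to test, also in the line labelled with it. The 9 markers of renal epithelium were all tested and summed to 1787 to 1850 CPM in HK2 and 792 to 845 CPM in 786-O. Of 7 leukocyte markers, PTPRC, CD3E, MS4A1 and TYROBP had 0 counts in both lines, and only CD68 was tested. The set summed to 48.8 to 53.2 CPM in HK2 and 26.6 to 27.6 CPM in 786-O. The 8 fibroblast markers summed to 77.5 to 86.6 CPM in HK2 and 283 to 351 CPM in 786-O, with COL1A2 at 0 in HK2 and PDGFRA at 0 in 786-O. The 7 endothelial markers summed to at most 1.5 CPM in either line.

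The gene lists that stood furthest from all genes were the epithelial junctions and keratins below, and the interferon-stimulated and HOX genes above. Nuclear-encoded respiratory chain genes, proteasome subunits, mitochondrial ribosomal proteins and most lists of central metabolism had medians close to that of all genes.

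**Figure D1:**
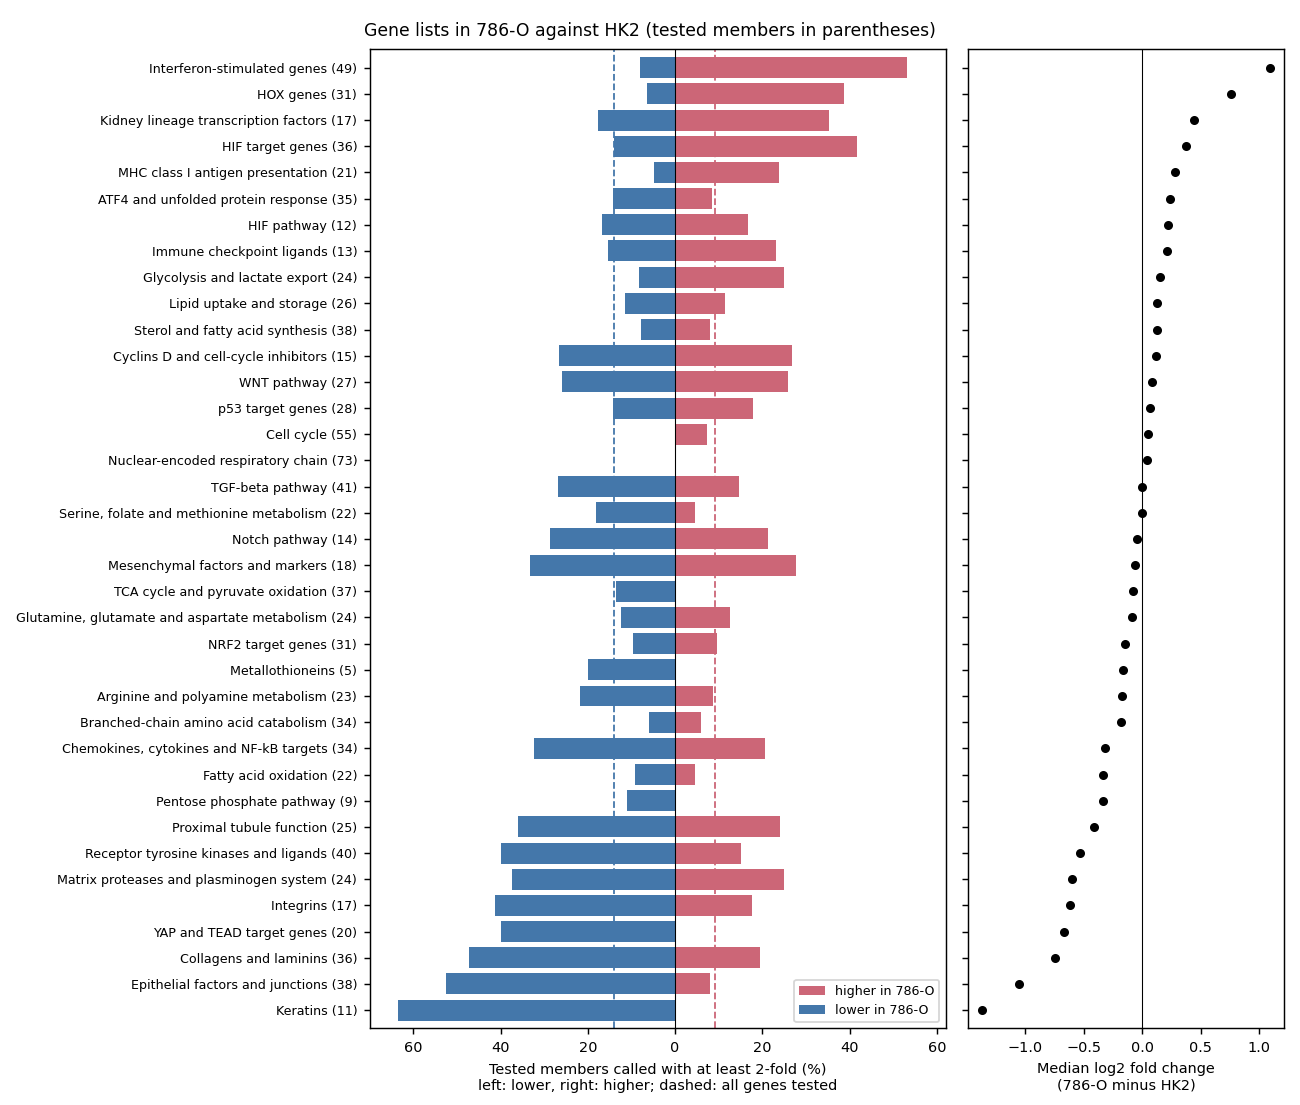
Share of the tested members of each list (those with at least 5 tested) called at least 2-fold lower (left panel, to the left) or higher (to the right), in percent with dashed lines for all tested genes, and the median log2 fold change of the list (right panel, 786-O minus HK2). Keratins (-1.367) and epithelial factors and junctions (-1.055) have the lowest medians, and interferon-stimulated genes (1.093) and HOX genes (0.756) the highest.

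Among the subunits of HIF, transcripts of both alpha subunits were lower in 786-O. HIF1A (chromosome 14, 61695513 to 61748258, GRCh38), the subunit of HIF-1, was at 699, 675 and 715 CPM in HK2 and at 9.69, 9.88 and 10.5 CPM in 786-O (log2 fold change -6.12, SE 0.0484, edgeR adjusted p = 3.61e-28). EPAS1 (chromosome 2, 46297407 to 46386697), which encodes HIF-2 alpha, was at 319, 283 and 303 CPM in HK2 and 77.8, 78.5 and 80.7 CPM in 786-O, 3.82-fold lower. The lines did not overlap for either gene, and the difference was larger for HIF1A (69.5-fold). Their partner ARNT was slightly higher in 786-O (log2 fold change 0.30) and its paralogue ARNT2 clearly so, at 4.88 to 5.74 CPM in HK2 and 38.5 to 40.1 CPM in 786-O (2.91). VHL transcripts were at a similar level in the lines, 30.3 to 32.4 CPM in HK2 and 27.5 to 30.1 CPM in 786-O (-0.11, edgeR adjusted p = 0.0419), which says nothing of the protein. This call was lost without 786-O replicate 1 or 2 or HK2 replicate 1 or 2 (edgeR adjusted p = 0.0651 to 0.188) and with no filter on low counts (0.0923). EGLN3, a prolyl hydroxylase that is itself a HIF target, rose from 1.79, 1.9 and 1.44 CPM to 45, 48.5 and 56.7 CPM (4.88). EGLN2, another prolyl hydroxylase, was not tested because it had at most 0.118 CPM in any library. It shares exons with the read-through gene RAB4B-EGLN2, so its counts are uncertain.

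Of 36 tested HIF target genes, 20 were higher in 786-O, 14 lower and 2 not called. At least a 2-fold rise was called for 15 of them (41.7%, against 9.13% of all genes) and at least a 2-fold fall for 5 (13.9%, the share of all genes), with a median log2 fold change of 0.374. CA12, a membrane carbonic anhydrase of pH control, had the largest rise, from 7.02, 6.69 and 7.69 CPM to 246, 301 and 328 CPM (log2 fold change 5.35, SE 0.127, edgeR adjusted p = 2.51e-10). TGFA, a ligand of the epidermal growth factor receptor, went from 22.5, 21.9 and 20.6 CPM to 282, 337 and 367 CPM (3.93). The ranges of the lines were far apart for both genes, and the 786-O libraries varied more among themselves than the HK2 libraries did.

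VEGFA (chromosome 6, 43770211 to 43786487), the endothelial growth factor, was at 18.6, 19.7 and 19.4 CPM in HK2 and 150, 168 and 171 CPM in 786-O (3.08). ADM, the vasodilator peptide adrenomedullin, was at 2.07, 2.34 and 1.83 CPM against 26.1, 28.9 and 28.2 CPM (3.74). IGFBP3, which binds insulin-like growth factors, stood at 164 to 172 CPM in HK2 and 1621 to 1710 CPM in 786-O (3.31). These secreted factors were thus all well separated between the lines. Among the intracellular targets, NDRG1 (3.06), the glucose transporter SLC2A1 (2.07), the G1 cyclin CCND1 (1.98), the circadian repressor BHLHE40 (1.86), the glycolytic regulator PFKFB4 (1.83) and LDHA (1.09), the lactate dehydrogenase subunit, rose at least 2-fold.

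Other HIF targets went the opposite way. LOX, the collagen cross-linking lysyl oxidase, fell from 41.1 to 46 CPM in HK2 to 2.19 to 2.82 CPM in 786-O (-4.06), the glycoprotein hormone STC2 fell by 2.82 and the transcriptional regulator CITED2 by 2.23 on the log2 scale. PDK1 (-0.51), which inhibits pyruvate dehydrogenase, PLIN2 (-0.52), which coats lipid droplets, PGK1 (-0.25), a glycolytic kinase, and BNIP3 (-0.14, edgeR adjusted p = 0.0118), a mitophagy receptor, were also called lower, BNIP3 no longer so without HK2 replicate 2 (edgeR adjusted p = 0.0602). Targets of the list thus lay on both sides, and CA9 was too low to test.

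**Figure D2:**
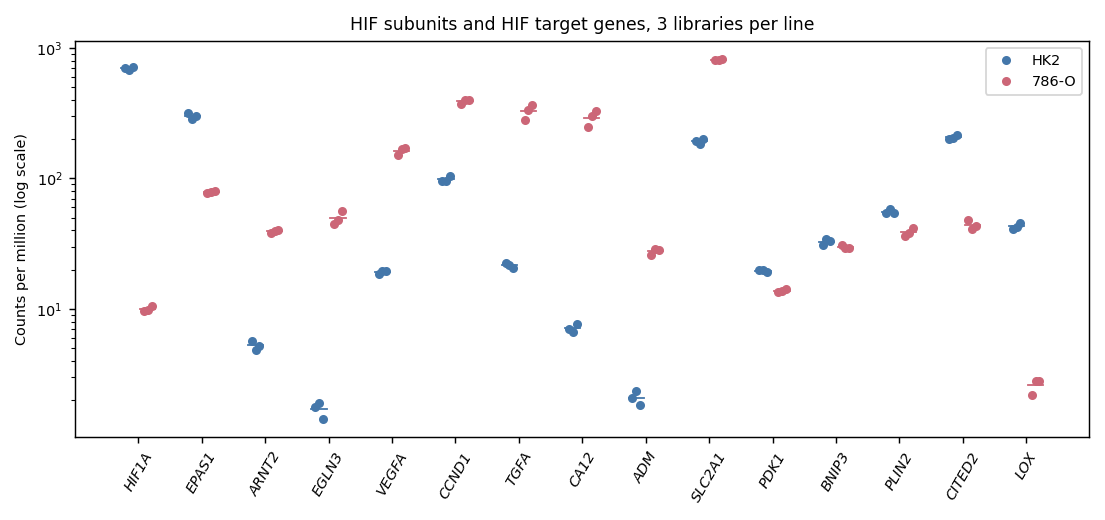
Level of HIF subunits, EGLN3 and HIF target genes in the 3 HK2 and 3 786-O libraries, in CPM on a log axis, with 1 point per library and a line at the mean. HIF1A and EPAS1 are lower in every 786-O library than in any HK2 library, whereas CA12, EGLN3, TGFA, ADM and VEGFA are higher.

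The promoters of CA12 and ADM are shown because these targets rose and their windows carry the core of the HIF binding motif. RefSeq windows on GRCh38.p14 run from 250 bases before to 50 after the start, and the capitals mark the core, ACGTG or GCGTG, searched on both strands, so that it also appears as CACGT or CACGC. The windows are chr15:63381797-63382096 on the minus strand for CA12 and chr11:10304823-10305122 on the plus strand for ADM, each printed 5′ to 3′ on the gene's strand.
CA12: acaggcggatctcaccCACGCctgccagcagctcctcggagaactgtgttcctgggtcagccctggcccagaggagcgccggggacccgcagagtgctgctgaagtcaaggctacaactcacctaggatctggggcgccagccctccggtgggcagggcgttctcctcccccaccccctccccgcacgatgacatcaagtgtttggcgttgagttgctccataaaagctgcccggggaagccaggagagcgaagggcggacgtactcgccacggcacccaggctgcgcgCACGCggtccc
ADM: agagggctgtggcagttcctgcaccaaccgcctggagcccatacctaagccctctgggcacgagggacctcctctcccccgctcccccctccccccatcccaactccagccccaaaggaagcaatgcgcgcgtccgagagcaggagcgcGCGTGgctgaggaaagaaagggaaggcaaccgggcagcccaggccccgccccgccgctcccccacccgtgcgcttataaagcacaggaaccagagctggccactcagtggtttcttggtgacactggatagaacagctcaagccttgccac
The core was found in the windows of 28 of the 33 HIF target genes that had one (84.8%), against 48.4% of all 27305 windows and 63.9% of those of tested genes. Of the 12 targets with a window that rose at least 2-fold, 9 had it (75%), and the windows of EGLN3 and TGFA did not. All 4 targets with a window that fell at least 2-fold had it too. A match is a description of the letters, not of binding.

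Of 24 tested genes of glycolysis and lactate export, 13 were higher in 786-O (54.2%, against 41.5% of all genes) and 10 lower (41.7%, against 42.8%), with a median of 0.149. At least 2-fold, 6 were higher (25%, against 9.13%) and 2 lower (8.33%, against 13.9%), or 1 lower without 786-O replicate 3 or without HK2 replicate 1. SLC2A1 was at 193, 185 and 200 CPM in HK2 and 804, 805 and 826 CPM in 786-O. The lactate exporter SLC16A3 was at 174 to 177 CPM and 434 to 455 CPM (log2 fold change 1.34), and the phosphofructokinases PFKL (1.11) and PFKP (1.03) were also higher. ENO3, the muscle-type enolase, fell by 3.26 on the log2 scale, and its exons overlap those of PFN1 on the opposite strand. The gene for hexokinase 2, which bears the same symbol as the HK2 line, was at 33.3 to 37 CPM in HK2 cells and 19.1 to 21.7 CPM in 786-O cells (-0.81).

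Of 37 tested genes of the tricarboxylic acid cycle and pyruvate oxidation, 14 were higher, 19 lower and 4 not called. The shares were 37.8% higher and 51.4% lower, against 41.5% and 42.8% of all genes. None was at least 2-fold higher and 5 were at least 2-fold lower (13.5%, against 13.9% of all genes). The mitochondrial malic enzyme ME3 was at 14.6, 12.9 and 13.4 CPM in HK2 and 0.18, 0.266 and 0.189 CPM in 786-O (-6.0), and the 2-oxoglutarate dehydrogenase-like gene OGDHL (-3.15) and the pyruvate dehydrogenase phosphatase PDP1 (-2.04) followed. IDH1 (0.97), SDHA (0.93) and ME2 (0.79) had the largest rises, all under 2-fold. Of 73 tested nuclear-encoded subunits of the respiratory chain and ATP synthase, 33 were higher (45.2%), 24 lower (32.9%) and 16 not called. The median was 0.041, with no member past 2-fold in either direction. By complex, the medians were 0.123 for complex I, 0.105 for complex III, -0.34 for complex IV and 0.056 for complex V. In the pentose phosphate pathway 6 of 9 tested genes were lower (66.7%, against 42.8% of all genes). Only PRPS1, which makes the activated ribose of nucleotides (-1.15), was at least 2-fold lower (11.1%, against 13.9%). Of 9 genes of gluconeogenesis only 4 were tested.

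Catabolism of the branched-chain amino acids begins with uptake and transamination, and continues with oxidation of the keto acids in mitochondria. Exchangers of the uptake step moved both ways. SLC7A5 (chromosome 16, 87830023 to 87869507), the light chain of the large neutral amino acid exchanger, was at 158, 156 and 171 CPM in HK2 and 840, 781 and 774 CPM in 786-O (log2 fold change 2.30, SE 0.0439, edgeR adjusted p = 1.05e-21), and its heavy chain SLC3A2 was at 82.4 to 87.6 CPM and 177 to 191 CPM (1.12). The lines did not overlap for either chain. SLC7A6, another exchanger light chain, was lower, at 143, 126 and 136 CPM in HK2 and 64.2, 64.1 and 62.6 CPM in 786-O (-1.08).

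The transaminases and the oxidative steps moved less. BCAT1, the cytosolic transaminase, was at 192, 190 and 196 CPM in HK2 and 150, 154 and 145 CPM in 786-O (-0.36), and the mitochondrial BCAT2 at 34.4 to 37.4 CPM and 26 to 28 CPM (-0.41). All 34 genes of the list were tested: 10 were higher, 18 lower (52.9%, against 42.8% of all genes) and 6 not called, with a median of -0.177. Only 2 were at least 2-fold higher and 2 at least 2-fold lower (5.88% each). The higher ones were AOX1, an aldehyde oxidase (1.66), and OXCT1, which activates ketone bodies (1.32). The lower ones were ABAT, the aminobutyrate transaminase (-1.99), and ALDH6A1, the methylmalonate semialdehyde dehydrogenase of valine breakdown (-1.73). MCCC2, a subunit of the leucine pathway's carboxylase, was 0.92 lower on the log2 scale and IVD, the step before it, was at 41.7 to 43 CPM and 42.8 to 43.1 CPM (0.02, edgeR adjusted p = 0.68). ACADSB, which handles isoleucine, rose (0.93), and MMUT, the mutase that passes methylmalonyl-CoA to the tricarboxylic acid cycle, fell (-0.90).

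In arginine metabolism the differences were larger. ASS1 (chromosome 9, 130444707 to 130501274), argininosuccinate synthase, was at 10.4, 11 and 10.5 CPM in HK2 and 0.27, 0.266 and 0.544 CPM in 786-O (log2 fold change -4.87, SE 0.161, edgeR adjusted p = 1.49e-17). AGMAT, the agmatinase (-7.44, overlapped by DNAJC16 on the opposite strand), GATM, the first enzyme of creatine synthesis (-5.47), and the mitochondrial arginase ARG2 (-2.35) were also lower. CPS1, carbamoyl phosphate synthetase of the urea cycle, was higher at 64 to 71 CPM against 21.9 to 24.4 CPM (1.53), as was GAMT, the second enzyme of creatine synthesis (1.15). Of 10 tested arginine genes 4 were at least 2-fold lower and 2 at least 2-fold higher, while of 13 polyamine genes 1 was lower and none higher by that much.

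GLUL (chromosome 1, 182378098 to 182391790), glutamine synthetase, was at 156, 151 and 152 CPM in HK2, and 1 count was found in the 3 libraries of 786-O together (0, 0 and 0.0237 CPM), a ratio of 18970 with a counting interval of 3405 to 749282. PHGDH (chromosome 1, 119711934 to 119744215), which opens serine synthesis, was at 86, 86.1 and 80.6 CPM and likewise had 1 count in 786-O, a ratio of 10440 (1874 to 412350). Genes beside them were transcribed in both lines: IER5 next to GLUL (-0.20), and ZNF697 (-0.78) and NOTCH2 (0.26) next to PHGDH. The intervals, at 95% confidence, cover counting error only.

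PSAT1, the enzyme that follows PHGDH, was higher in 786-O at 88.8, 89.7 and 91 CPM against 42.2, 41.7 and 42.4 CPM (1.09). Further along, the mitochondrial folate enzyme ALDH1L2 (-4.53) and the transsulfuration enzymes CBS (-1.92) and CTH (-1.62) were lower. The glutamate transporter SLC1A1 rose (3.03) and the glutamine transporter SLC38A2 fell (-1.72). Over the lists, 11 of 24 tested glutamine, glutamate and aspartate genes were higher and 12 lower, and 7 of 22 serine, folate and methionine genes were higher and 10 lower.

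Fatty acid oxidation leaned lower. Of 22 tested genes, 14 were lower in 786-O (63.6%, against 42.8% of all genes) and 7 higher, with a median of -0.331, although only 2 fell at least 2-fold. ACAA2, the mitochondrial thiolase, was at 77.9 to 82.2 CPM in HK2 and 11.3 to 14.5 CPM in 786-O (-2.62), and CPT1A, the carnitine transferase that admits fatty acids to mitochondria, at 11 to 11.6 CPM and 4.54 to 5.36 CPM (-1.17). CRAT, the carnitine transferase of short acyl groups, rose (1.95).

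Lipid storage and synthesis were mixed. AGPAT2 (1.54), of triglyceride synthesis, the fatty acid carrier FABP5 (1.48) and the acyl-CoA synthetase ACSL1 (1.33) rose, whereas ACSL5 (-3.78), the lipoprotein receptor VLDLR (-1.09) and DGAT2 (-1.04), of the last step to triglyceride, fell. FADS2, a fatty acid desaturase, was at 26, 26.2 and 26.1 CPM in HK2 and 543, 485 and 495 CPM in 786-O (4.28), with the qualification that its exons overlap FADS1 and FEN1. The elongase ELOVL6 rose as well (1.93). The desaturase SCD5 (-5.18) and the acetyl-CoA carboxylase ACACB (-2.12) fell. Of the 25 sterol genes, 14 were higher and 7 lower.

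Of 31 tested NRF2 targets and regulators, 18 were lower (58.1%) and 10 higher, with 3 past 2-fold on each side and a median of -0.147. The exporter ABCC3 (2.01) rose and the aldo-keto reductase AKR1C3 (-1.61) and the thioredoxin reductase TXNRD1 (-1.16) fell. Among the 5 tested metallothioneins, small metal-binding proteins, MT1E (0.56) and MT2A (0.36) were slightly higher, and MT1M had 1 count in 786-O against 2.23 to 2.89 CPM in HK2 (ratio 319, interval 57.2 to 12586).

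Of 62 listed genes of mature proximal tubule function, 25 passed the filter on low counts. Of those, 11 were higher (44%, against 41.5% of all genes) and 14 lower (56%, against 42.8%) in 786-O. At least 2-fold, 6 were higher (24%, against 9.13%) and 9 lower (36%, against 13.9%). The median was -0.408. Where at least 10 counts were asked of every library, it was 0.411 relative to all genes, with 5 members at least 2-fold lower. ANPEP, the brush border aminopeptidase N, was at 1.85, 1.83 and 1.53 CPM in HK2 and 116, 111 and 109 CPM in 786-O (log2 fold change 6.02). CYP24A1 (chromosome 20, 54143538 to 54173986), which degrades active vitamin D, went the other way, from 528, 490 and 536 CPM to 0.0676, 0.0266 and 0.0237 CPM (-13.54, SE 0.106, edgeR adjusted p = 2.34e-26). No library of either line came near the range of the other for these genes. The carnitine exporter SLC16A9 (-5.88) and the inositol oxygenase MIOX (-4.38) fell, and the amino acid transporter SLC7A7 and the organic anion pump ABCC2 rose (1.79 each).

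Transcription factors that set renal identity ranged from genes with no called difference to a gene found in 1 line only. PAX8, a lineage factor of the nephron, was at 164, 162 and 173 CPM in HK2 and 172, 162 and 160 CPM in 786-O (-0.01, edgeR adjusted p = 0.826), and its ranges overlapped. WT1 (chromosome 11, 32387775 to 32435539), a factor of the early nephron and of podocytes, had 0 counts in HK2 and 34.6, 34.4 and 33.9 CPM in 786-O, at least 425-fold higher. This and every other bound quoted for a line at 0 is taken against 3 counts per library, averaged over that line, 0.0807 CPM in HK2 and 0.0729 CPM in 786-O. PAX2 rose from 2.94 to 4.02 CPM to 23.6 to 26 CPM (2.84), MECOM rose by 2.18 and TFCP2L1 by 5.51. PPARGC1A, the coactivator of mitochondrial biogenesis, fell from 68.2, 63.5 and 65.4 CPM to 4.71, 4.7 and 4.97 CPM (-3.77), TFAP2A fell by 2.01 and LHX1 by 1.42.

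HOX genes, which record position along the body axis, were mostly higher. Of 31 tested, 24 were higher (77.4%, against 41.5% of all genes), 6 lower and 1 not called, and 12 rose at least 2-fold (38.7%). All 4 clusters had positive medians, 0.699 for HOXA, 1.128 for HOXB, 1.039 for HOXC and 0.588 for HOXD. HOXC8 (3.57), HOXA2 (3.54) and HOXA13 (3.04) rose most, HOXA7 fell (-3.50), and HOXB13 had 0 counts in 786-O against 4.34 to 5.24 CPM in HK2, at least 64.3-fold lower. Neighbouring HOX genes share exons with each other and with antisense transcripts in the annotation, so single members are uncertain.

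Genes of epithelial identity and adhesion were mostly lower in 786-O. Of 38 tested factors and junction proteins, 28 were lower in 786-O (73.7%), 7 higher and 3 not called, and 20 were at least 2-fold lower (52.6%, against 13.9% of all genes), or 13 where at least 10 counts were asked of every library. CDH1, E-cadherin of adherens junctions, was at 4.66, 4.27 and 4.56 CPM in HK2 and 0.0225, 0.186 and 0.071 CPM in 786-O (log2 fold change -5.61). EPCAM was at 68.7, 80.8 and 71.2 CPM against 0.541, 0.611 and 0.568 CPM (-7.0). DSP, the plakin that ties desmosomes to keratin, was at 293, 267 and 335 CPM against 0.406, 0.876 and 0.45 CPM (-9.04). Each was clearly transcribed in HK2 and at or under 1 CPM in every 786-O library.

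Among other desmosome, tight junction and cadherin genes, DSC3, desmocollin 3, had 0 counts in 786-O and 36.2 to 39.6 CPM in HK2 (at least 521-fold lower), CLDN11 fell by 10.22 and CDH3, P-cadherin, had 1 count (ratio 1252, interval 225 to 49462). The splicing factors of epithelial isoforms, ESRP1 (-6.50) and ESRP2 (-6.41), fell with them. The claudin CLDN23 (1.71) and the factor KLF4 (1.55) rose at least 2-fold.

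Keratins, the intermediate filaments of epithelia, followed, with 8 of 11 tested members lower, 7 of them at least 2-fold (63.6%, against 13.9% of all genes). Taken by gene symbol, 12 keratins were tested, and again 7 were at least 2-fold lower (58.3%). The keratin outside the list was at least 2-fold higher (4.51). KRT7 (chromosome 12, 52233243 to 52255853) was at 247, 269 and 268 CPM in HK2 and 0.518, 0.372 and 0.639 CPM in 786-O (-8.98, SE 0.0848, edgeR adjusted p = 4.60e-27). KRT17 (-5.16) and KRT19 (-4.15) also fell far, while the simple-epithelium pair KRT8 and KRT18 fell less, to 289 to 317 CPM (-1.13) and 159 to 168 CPM (-1.37) in 786-O.

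Mesenchymal genes did not rise as a group (median -0.059). Of 18 tested, 8 were higher (44.4%, against 41.5% of all genes) and 9 lower (50%, against 42.8%). At least 2-fold, 5 were higher (27.8%, against 9.13%) and 6 lower (33.3%, against 13.9%), so members spread to both sides. VIM, the intermediate filament vimentin, was at 1336, 1410 and 1422 CPM in HK2 and 4891, 4858 and 4804 CPM in 786-O (1.80), and CDH2, N-cadherin, at 226 to 237 CPM and 326 to 339 CPM (0.53), so that both were already abundant in HK2. CDH11 had 1 count in HK2 and 6.29 to 6.89 CPM in 786-O (ratio 751, interval 135 to 29655). TWIST1, a factor of epithelial-mesenchymal transition, had 0 counts in 786-O against 8.19 to 8.49 CPM in HK2 (at least 114-fold lower). TAGLN, a smooth muscle actin-binding protein (-5.86), S100A4 (-2.96) and the matrix protein FN1 (-1.98) fell. TAGLN overlaps PCSK7 on the opposite strand.

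**Figure D3:**
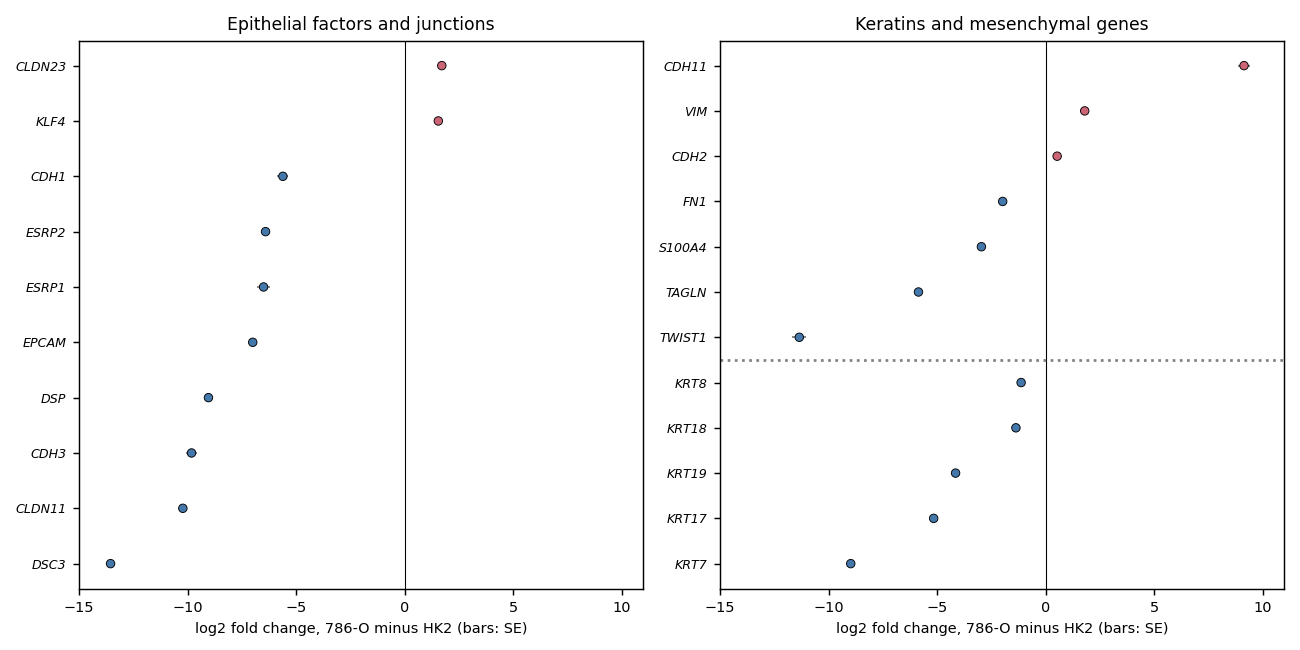
Log2 fold change (786-O minus HK2, horizontal axis, bars give the SE) of the epithelial genes (left) and the keratins and mesenchymal genes (right, parted by a dotted line) named in the text, with called higher genes in red and called lower genes in blue. All epithelial genes shown but CLDN23 and KLF4 lie below 0, as do all 5 keratins, and the values of DSC3, CDH3, CDH11 and TWIST1, with 0 or 1 count in a line, depend on the prior count.

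The matrix that the lines transcribe differed in kind. Among 36 tested collagens and basement membrane genes, 17 were at least 2-fold lower (47.2%, against 13.9% of all genes) and 7 at least 2-fold higher (19.4%, against 9.13%), with a median of -0.743. Where at least 10 counts were asked of every library, which leaves out genes silent in a line, the median was -0.11 relative to all genes. COL6A3, a microfibrillar collagen, was at 4.05, 4.14 and 4.51 CPM in HK2 and 378, 427 and 364 CPM in 786-O (log2 fold change 6.51), and COL5A3 (2.82) and COL1A1 (2.45) rose. LAMC3, a laminin chain, had 0 counts in 786-O against 101, 99.8 and 103 CPM in HK2 (at least 1385-fold lower). LAMA1 (-7.69) and NID1 (-7.52), also of basement membranes, fell, and COL11A1 had 2 counts in 786-O (ratio 2399, interval 664 to 19811). Laminins and other basement membrane genes had a median of -1.389 and collagens one of -0.382.

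Receptors for the matrix shifted as well. Of 17 tested integrins, ITGB5 (1.71), ITGB8 (1.68) and ITGA3 (1.35) rose at least 2-fold (17.6%, against 9.13% of all genes). A fall of at least 2-fold was called for 7 (41.2%, against 13.9%), led by ITGB4 (-4.0), the hemidesmosome subunit, ITGA4 (-3.97) and ITGB2 (-3.03). All 24 tested proteases and plasminogen genes differed, as did 84.3% of all genes. Of them 8 were higher (33.3%, against 41.5%) and 16 lower (66.7%, against 42.8%). MMP2, gelatinase A, was at 0.479, 0.37 and 0.494 CPM in HK2 and 113, 112 and 110 CPM in 786-O (7.95). ADAM9, a membrane sheddase, was at 22.4 to 22.8 CPM and 489 to 518 CPM (4.48), and overlaps TM2D2 on the opposite strand. MMP11 (-6.21), the plasminogen activator PLAT (-4.46) and the collagenase MMP1 (-4.04) fell.

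Of 40 tested receptor tyrosine kinases and ligands, 16 were at least 2-fold lower (40%, against 13.9% of all genes) and 6 at least 2-fold higher (15%, against 9.13%). The higher ones included the ligands TGFA, VEGFA and FGF5 (2.13). INSR, the insulin receptor, had 0 counts in 786-O and 20.1, 17.3 and 19.4 CPM in HK2 (at least 259-fold lower), while its neighbours ZNF557 (0.54) and ARHGEF18 (-0.09) were transcribed in both. EPHB4 (-5.54), ERBB3 (-4.56) and the ligand AREG (-4.23) fell. MET, the hepatocyte growth factor receptor, was at 791 to 835 CPM and 839 to 875 CPM (0.07, edgeR adjusted p = 0.0914, or 0.0453 in a fit of the 6 libraries and 0.0326 with no filter on low counts), and EGFR was moderately higher (0.60, edgeR adjusted p = 0.00113).

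Most members of the TGF-beta pathway past 2-fold were secreted, with 8 of 16 ligands and binding proteins at least 2-fold lower and 4 higher (50% and 25%). Among 25 receptors, transducers and targets the numbers were 3 and 2 (12% and 8%), and the shares of all genes were 13.9% and 9.13%. GREM1, a secreted antagonist of bone morphogenetic proteins, was at 618, 633 and 673 CPM in HK2 with 2 counts in 786-O (ratio 39800, interval 11018 to 328643), and BMP4 fell by 7.58. INHBB, an activin subunit, was the reverse, with 1 count in HK2 and 22.6 to 23.9 CPM in 786-O (ratio 2659, interval 477 to 105038). FSTL1, a follistatin-like glycoprotein, went from 31, 31.8 and 32.9 CPM to 1389, 1366 and 1393 CPM (5.43). The coreceptor ENG (-5.86) fell and ID2 rose (1.72).

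In the WNT pathway the antagonist DKK1 had 0 counts in 786-O against 157, 170 and 162 CPM in HK2 (at least 2236-fold lower), and the ligand WNT2B (-4.31) fell. RSPO3, which amplifies WNT signals, had 3 counts in 786-O (ratio 119, interval 40.7 to 577). The receptor ROR2 had 1 count in HK2 and 21.2 to 22.9 CPM in 786-O (ratio 2556, interval 459 to 100963). The pathway's transcription factor LEF1 (4.50) and the feedback gene AXIN2 (1.91) rose. In the Notch pathway NOTCH3 was at 86.9, 71.9 and 85.4 CPM in HK2 and 0, 0.0797 and 0.0237 CPM in 786-O (-11.17), while NOTCH1 (1.14) and the glycosyltransferases MFNG (6.0) and LFNG (1.38), which tune the receptors, rose.

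Targets of YAP and TEAD, the effectors of the Hippo pathway, leaned lower, with 13 of 20 lower (65%, against 42.8% of all genes) and a median of -0.666. At least 2-fold, 8 were lower (40%, against 13.9%) and none higher. ANKRD1 was at 201, 229 and 233 CPM in HK2 and 5.18, 5.52 and 5.37 CPM in 786-O (-5.37), and the matricellular genes CCN2 (-4.61) and CCN1 (-2.36) fell. NT5E, an ectonucleotidase, had the largest rise (0.87). CCN2 is also on the TGF-beta list.

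Interferon-stimulated genes were higher in 786-O as a group. Of 49 tested, 40 were higher (81.6%, against 41.5% of all genes), 5 lower and 4 not called, and 26 rose at least 2-fold (53.1%, against 9.13%), with a median log2 fold change of 1.093. OAS2, which senses double-stranded RNA, was at 0.0319, 0.0493 and 0.0645 CPM in HK2 and 8.79, 10 and 9.7 CPM in 786-O (7.46). IFI27 was at 0.287, 0.321 and 0.15 CPM against 20.8, 23.4 and 20.6 CPM (6.44, SE 0.154, edgeR adjusted p = 3.94e-20), and IFI6 at 4.4, 5.01 and 5.16 CPM against 75, 77.7 and 70.4 CPM (3.92). The lines did not overlap for these genes, which were near background in HK2 except for IFI6.

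XAF1, a pro-apoptotic interferon target, had 1 count in HK2 and 3.69 to 4.46 CPM in 786-O (ratio 456, interval 81.9 to 18019). The restriction factors MX2 (6.68) and TRIM22 (6.11), EPSTI1 (4.29), the apolipoprotein APOL1 (4.05), the membrane protein IFITM3 (2.88), the ubiquitin-like modifier ISG15 (1.94) and the tetherin BST2 (1.72) rose. The guanylate-binding protein GBP2 (-1.66) and IFI44L (-1.57) fell.

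The promoters of IFI27, EPSTI1 and IFI6 are shown because these genes rose strongly from a low level and their windows hold the core of the interferon-stimulated response element, given in capitals and searched on both strands: GAAA, any 2 bases and GAAA again, or TTTC, any 2 bases and TTTC on the other strand. The RefSeq windows on GRCh38.p14 are chr14:94110486-94110785 on the plus strand for IFI27, chr13:42992192-42992491 on the minus strand for EPSTI1 and chr1:27672143-27672442 on the minus strand for IFI6, each printed 5′ to 3′ on the gene's strand.
IFI27: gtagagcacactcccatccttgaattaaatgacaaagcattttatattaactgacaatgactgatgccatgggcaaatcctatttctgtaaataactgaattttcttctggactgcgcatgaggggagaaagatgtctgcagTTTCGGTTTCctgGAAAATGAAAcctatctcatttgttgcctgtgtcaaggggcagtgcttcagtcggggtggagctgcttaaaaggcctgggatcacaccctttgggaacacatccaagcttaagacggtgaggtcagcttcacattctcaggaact
EPSTI1: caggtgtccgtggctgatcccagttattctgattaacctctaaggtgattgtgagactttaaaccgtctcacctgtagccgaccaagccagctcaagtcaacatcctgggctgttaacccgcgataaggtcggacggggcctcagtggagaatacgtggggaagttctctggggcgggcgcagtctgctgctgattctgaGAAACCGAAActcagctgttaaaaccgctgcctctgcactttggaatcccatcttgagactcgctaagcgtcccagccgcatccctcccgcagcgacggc
IFI6: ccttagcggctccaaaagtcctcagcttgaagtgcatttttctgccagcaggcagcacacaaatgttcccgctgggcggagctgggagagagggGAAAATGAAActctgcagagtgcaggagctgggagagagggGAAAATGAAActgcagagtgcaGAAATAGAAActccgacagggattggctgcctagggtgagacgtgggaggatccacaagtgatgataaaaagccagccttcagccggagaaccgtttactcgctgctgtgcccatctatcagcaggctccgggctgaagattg
The first base of the core lies at -108 and -95 from the start in IFI27, at -50 in EPSTI1 and at -156, -115 and -93 in IFI6. It was found in 24 of the 37 windows of the list (64.9%) and in 3.65% of all windows. Of the 26 genes that rose at least 2-fold, 18 had a window, 14 of these held the core, and 9 held it at least 2 times. Both genes with a window that fell at least 2-fold, IFI44L and HERC5 (-1.17), also held it. All 14 had it within 150 bases of the start, and XAF1, SAMD9L, RSAD2 and OAS1 had a window without it.

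Antigen presentation by MHC class I was moderately higher, with 13 of 21 genes higher and 6 lower (median 0.282). B2M, the invariant light chain, was at 534, 574 and 546 CPM in HK2 and 1587, 1594 and 1722 CPM in 786-O (1.57). HLA-C (1.34), the peptide transporter TAP1 (1.12), the transactivator NLRC5 (1.07) and HLA-B (1.06) rose at least 2-fold, and HLA-G fell (-1.71). HLA genes are near-identical copies, so reads may be split among them.

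Inflammatory genes moved both ways. Of 34 tested chemokines, cytokines and NF-kB targets, 22 were lower (64.7%, against 42.8% of all genes) and 10 higher. At least 2-fold, 11 were lower (32.4%, against 13.9%) and 7 higher (20.6%, against 9.13%), or 4 higher where at least 10 counts were asked of every library. Of the 9 tested under chemokines, which include ACKR3, 4 rose and 3 fell at least 2-fold. CXCL8, the neutrophil chemoattractant, was at 229, 266 and 277 CPM in HK2 and 0.924, 0.584 and 0.757 CPM in 786-O (-8.39). LCN2, lipocalin 2 (-4.86), CXCL2 (-4.35) and IL6 (-2.83) fell. CCL5 had 0 counts in HK2 and 5.88, 4.36 and 4.64 CPM in 786-O (at least 61.4-fold higher), the scavenging receptor ACKR3 had 1 count in HK2 (ratio 1364, interval 245 to 53877), and CCL2 rose (3.13). Among immune checkpoint ligands, CD70, a ligand of the tumour necrosis factor family, was at 58.3 to 63.2 CPM and 322 to 359 CPM (2.46), and LGALS9, galectin-9, rose by 3.31. CD274, which encodes PD-L1, was lower (-0.88), as was TNFRSF14 (-2.42).

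Cell cycle genes were split by phase. All 55 were tested and the 25 of mitosis had a median of 0.351 with 18 higher, whereas the 30 of S phase had a median of -0.222 with 19 lower. MKI67, the proliferation antigen, was at 195 to 243 CPM in HK2 and 400 to 489 CPM in 786-O (1.04), and the mitotic kinase PLK1 rose by 1.06. PCNA, the sliding clamp of replication, was at 292 to 324 CPM and 149 to 158 CPM (-0.98). None fell 2-fold (1 without HK2 replicate 3) and 4 rose at least 2-fold (2 without HK2 replicate 2).

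Inhibitors of the G1 cyclin-dependent kinases included the gene with the lowest fitted log2 fold change of all those tested. CDKN2A (chromosome 9, 21967752 to 21995324), which encodes p16 and p14ARF, was at 167, 184 and 186 CPM in HK2 with 0 counts in 786-O, at least 2455-fold lower. CDKN2B, the next gene, had 0 counts in 786-O against 22.2, 22.3 and 21.5 CPM (at least 302-fold lower). Of the tested genes around them, MTAP on the other side was at 52.7 CPM in HK2 and 42.8 CPM in 786-O on average (-0.30), DMRTA1 was lower (-1.62), ELAVL2 had 0 counts in 786-O and TUSC1 beyond it was transcribed in both (0.33). A deletion and silencing cannot be told apart from counts.

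Other regulators of G1 went both ways. The inhibitor CDKN2C, p18, was at 53.7, 59.3 and 54.7 CPM in HK2 and at 226 CPM in all 3 libraries of 786-O (2.01), and CDKN2D (1.74) and CDKN1A, p21 (1.49), rose, while CDKN1C, p57, fell (-7.38). CCND1 was at 95.4 to 104 CPM and 373 to 398 CPM, and CCND2 had 0 counts in 786-O against 16.1 to 17.9 CPM (at least 232-fold lower). Targets of p53 were evenly split, with 14 of 28 higher and 12 lower: EDA2R had 0 counts in HK2 and 13.1, 13.7 and 13.3 CPM in 786-O (at least 166-fold higher), RRM2B (1.88) and FAS (1.59) rose, and TP53I3 (-2.13), PLK2 (-1.70) and GDF15 (-1.54) fell. Of 16 chaperones and sensors of the endoplasmic reticulum 14 were higher, none 2-fold (median 0.27), and of 19 targets of ATF4, the amino acid stress factor, 11 were lower and 7 higher (median -0.171).

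Families defined by gene symbol are set against the 9.13% of all genes at least 2-fold higher and the 13.9% at least 2-fold lower. The protocadherins, adhesion molecules of the nervous system, had 9 of 14 tested genes at least 2-fold higher (64.3%), or 3 genes where at least 10 counts were asked of every library. The highest log2 fold changes were those of PCDHGA10 (6.36), PCDHGB7 (5.87) and PCDHB9 (5.47). PCDHGA7 fell (-5.80). The clustered members share exons, so their counts are uncertain. UDP-glucuronosyltransferases, which conjugate drugs and hormones, had 3 of 5 at least 2-fold higher, among them UGT1A6 (8.29) and UGT2B7 lower (-4.19), and the UGT1A genes also share exons. Of 12 GALNT transferases, which start O-glycans, 5 rose at least 2-fold, GALNT9 (7.05) and GALNT3 (5.75) most, while GALNT13 had 0 counts in 786-O (at least 431-fold lower). Of 16 semaphorins 6 rose at least 2-fold, as did 4 of 10 annexins (ANXA1 at 2.63).

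At the lower end, 6 of 10 matrix metalloproteinases, 5 of 9 cadherins (3 cadherins where at least 10 counts were asked of every library) and 5 of 9 SLC16 transporters, which carry monocarboxylates, fell at least 2-fold. IGFBP4 (-6.27) was opposite to IGFBP1 (4.60) and IGFBP3. The 387 tested ZNF genes, mostly transcriptional repressors, had a median of -0.221. Of these, 58 were at least 2-fold lower (15%, near the 13.9% of all genes) and 22 higher (5.68%, against 9.13%). None of 79 mitochondrial ribosomal proteins or 37 proteasome subunits reached 2-fold in either direction. By biotype, 75 of 332 long noncoding RNAs were at least 2-fold higher (22.6%) and 36 lower (10.8%), against 1064 (8.77%) and 1721 (14.2%) of 12138 protein-coding genes.

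At the extremes lay genes with few or no counts in 1 of the lines, whose fitted fold changes depend on the prior count, so that bounds or ratios are given for them. In 786-O, 104 tested genes had 0 counts in all 3 libraries, at a median of 8.29 CPM in HK2, and 82 of them also had 0 counts in 786-M1A. In HK2, 18 genes outside the Y chromosome had 0 counts, at a median of 9.77 CPM in 786-O, and 1 of them had 0 counts in 786-M1A. The 10 lowest fitted log2 fold changes were those of CDKN2A, DKK1, NPNT, the matrix protein nephronectin, with 1 count in 786-O and 448, 429 and 410 CPM in HK2 (ratio 53191, interval 9547 to 2100927), GREM1, LAMC3, the neurofilament INA (at least 915-fold), the transporter SLC6A15 (at least 831-fold), the factor TBX18 (at least 722-fold), HENMT1 (at least 608-fold) and GLB1L2 (at least 599-fold). Bounds and ratios are different measures, so they give no order among these genes.

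The highest fitted value was that of EMC10 (chromosome 19, 50476507 to 50490871), a subunit of a membrane protein insertase, with 0 counts in HK2 and 97, 96.6 and 92.6 CPM in 786-O (at least 1182-fold higher). Its neighbours POLD1 (52.9 and 55.6 CPM on average) and JOSD2 (7.41 and 13.2 CPM) were transcribed in both lines, and GARIN5A overlaps it on the opposite strand. EMC10 is known as a broadly transcribed gene, and how the counting treated reads that overlap several genes is not given in the sources used here, so its 0 counts in HK2 are uncertain. The nucleotide transporter SLC17A9 (at least 1114-fold), PREX2 (at least 555-fold), the methyltransferase BHMT2 (at least 517-fold), WT1 and IGFL3 (at least 352-fold) were also among the highest fitted values. ALDH1A1, which makes retinoic acid, was at 0.0319, 0.0247 and 0.043 CPM in HK2 and 340, 336 and 369 CPM in 786-O (13.20), filaggrin, FLG, rose by 12.09, and the matrix stabiliser ITIH5 had 1 count in HK2 and 48.4 to 59.2 CPM in 786-O (ratio 6132, interval 1101 to 242221). ALDH2, the mitochondrial aldehyde dehydrogenase, rose too, from at most 0.345 CPM to 11.4 to 12.8 CPM (5.37).

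Differences also ran along chromosomes. The 410 tested genes of chromosome 14 had a median of -0.735, with 122 at least 2-fold lower (29.8%, against 13.9%) and 13 higher, and all 7 of its bins of 10 Mb with at least 20 genes lay below 0, from -0.959 to -0.499. HIF1A lies in such a bin, 60 to 70 Mb, where 45 of 48 tested genes were lower and none higher. All 13 bins of chromosome 12 (median -0.368) and all 14 of chromosome 6 (-0.399) were also below 0. Chromosome 15 was highest (0.499), with all 8 bins above 0, and chromosome 21 followed (0.434). Chromosome 5 was divided, its 0 to 10 Mb bin at 0.895 and its lowest bin at -0.599. Of 241 bins over the genome, 23 had medians below -0.5 and 16 above 0.5. Copy number and regulation cannot be told apart in these data.

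**Figure D4:**
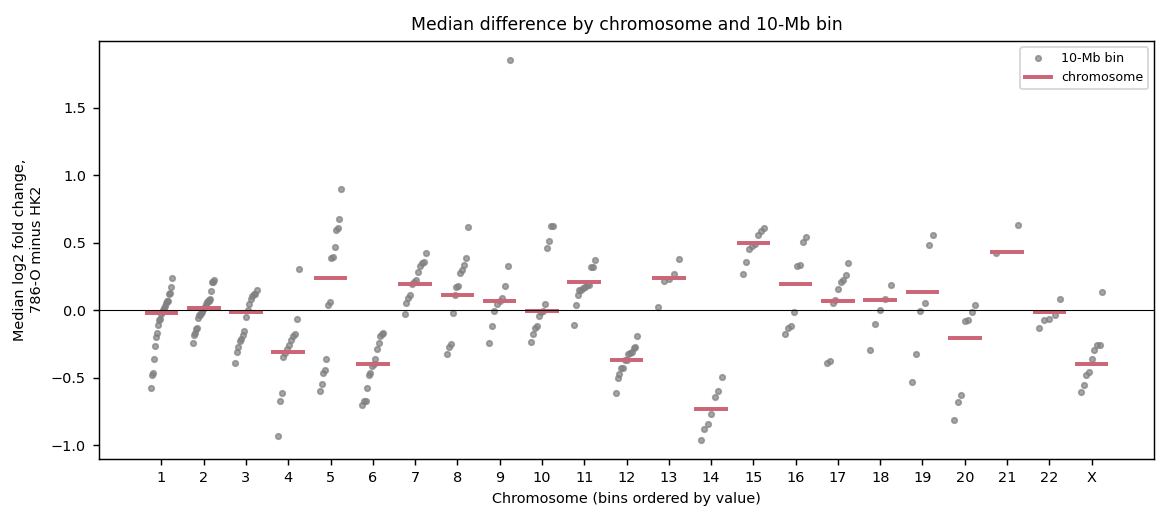
Median log2 fold change (786-O minus HK2, vertical axis) of the tested genes of each chromosome (line) and of its 10 Mb bins with at least 20 genes (points, ordered by value and not by position). All bins of chromosome 14 lie below 0 and all bins of chromosome 15 above it, and the highest bin, at 1.855, is on chromosome 9.

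The highest bin of all was 70 to 80 Mb of chromosome 9, where 21 of 22 tested genes were higher and 19 at least 2-fold (median 1.855). Besides ALDH1A1 it holds PCSK5, a proprotein convertase (0.123 to 0.16 CPM in HK2 and 62.3 to 66.1 CPM in 786-O, 8.85), the nicotinamide riboside kinase NMRK1 (3.15), MAMDC2 (3.12), ANXA1, the G-protein subunit GNAQ (1.94) and PSAT1. The exception was the pseudogene RPSAP9 (-0.09, edgeR adjusted p = 0.0871), whose count is uncertain because it is a near-identical copy of another gene. The next bin, 80 to 90 Mb with 27 genes, had a median of -0.003.

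Promoter windows with few CpG were more frequent among the genes that differed at least 2-fold, in both directions, while the median numbers of CpG were close. These medians were 26 for the higher genes, 24 for the lower and 27 for the others. Of tested genes, 10299 had a RefSeq window, and fewer than 10 CpG were found in 21.1% of 875 genes at least 2-fold higher, in 19.2% of 1375 at least 2-fold lower and in 7.83% of the 8049 others. This is given as a description, with no test.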

How the data were processed

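RNA was extracted from replicate dishes of each line, libraries were prepared with the TruSeq Stranded mRNA kit and sequenced on a NextSeq 500. The authors deposited whole-number counts per gene, made with featureCounts (Rsubread) on the human genome build hg38 (GRCh38), with no normalization; the annotation release and the strand setting of the counting are not given in the sources used here. Where strand was not used, reads of a gene and its antisense partner cannot be told apart, and exon overlaps were therefore taken from GENCODE. Of 28395 identifiers, 27745 matched RefSeq names on GRCh38.p14.

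Total counts per library were 30212291 to 45362428 over the 6 libraries compared. Genes averaging 50 counts or more across these 6 libraries were kept, scaled by TMM and fitted with edgeR 4.0.16 (robust quasi-likelihood test, R 4.3.3) over all 9 libraries, which share the estimate of the spread, and p-values were Benjamini-Hochberg adjusted over 12843 genes. A gene was called at an adjusted p under 0.05. The standard error is the absolute log2 fold change divided by the square root of F, and CPM use TMM-scaled library sizes. Fitted fold changes use edgeR's default prior count. A prior count of 2 entered only the log2 values behind the correlations between libraries. An alternative was limma 3.58.1 on log2 CPM with 0 set to 0.5, without the VSN normalization that the study applied before limma, as were DESeq2 1.42.0, other scalings and filters, a fit of 6 libraries, a replicate block and leaving out each library. The fit was tested on simulated data drawn from these counts, with 200 of 12843 genes changed. It called 195 of these 200 and, wrongly, 21 unchanged genes. In the data 84.3% of genes were called, so the simulation does not show how scaling and calls behave at such a share. An exact permutation test of 3 against 3 libraries cannot go below p = 0.1 and was not used for calls. No 2 libraries agreed within sampling noise.

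Genes named are those with the 3 highest and 3 lowest log2 fold changes in each of 38 lists (1198 genes) and in families, and the 10 highest and lowest of all genes, among called genes whose lines did not overlap, and members central to a list (such as the HIF subunits, BCAT1, ASS1, PAX8 and CDH1). Further members were named after their values were seen. The members and lists were chosen with earlier results of these data known. Y-chromosome genes and XIST were left out of the named genes, and some other genes that the rule names are not reported here. List medians include only genes that passed the filter. Motifs were searched in RefSeq promoter windows with Python 3.11.15.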

Additional observations from a re-analysis of the deposited data

How the results depend on the processing

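The numbers of genes called higher and lower moved by less than 1.5 times under every alternative run, and no called gene recomputed there changed direction. Medians of lists and chromosomes here are relative to the median of all genes under the same setting. Without a filter on low counts, 5404 genes were called with at least a 2-fold difference, 2094 higher and 3310 lower, and the median of all genes was -0.001. That median was -0.021 with DESeq2, -0.02 with RLE scaling and -0.067 with upper-quartile scaling. Matrix metalloproteinases at least 2-fold higher numbered 1 instead of 2 under DESeq2, RLE and upper-quartile scaling and under both stricter filters. Upper-quartile scaling also gave 1 respiratory chain gene, 2 pentose phosphate genes and 1 cell cycle gene at least 2-fold lower, 2 cell cycle genes higher and 0 laminins higher. With the filter taken over all 9 libraries, the metallothionein median was 0.103 with 0 members lower, the integrin median -0.276, and 1 calcium channel was lower.

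Asking for at least 10 counts in every library removes, by construction, genes silent in either line. The median of all genes was then -0.006. List medians became 0.411 for proximal tubule function, 0.219 for lineage factors, -0.074 for arginine and polyamines, 0.093 for metallothioneins, -0.675 for epithelial genes, -1.253 for keratins, -0.11 for collagens and laminins, -0.269 for receptor tyrosine kinases, 0.182 for WNT, 0.088 for Notch, 0.772 for interferon-stimulated genes, -0.414 for chemokines, 0.01 for checkpoint ligands, 0.326 for cyclins D and inhibitors and 0.027 for p53 targets. Members at least 2-fold lower became 5 for proximal tubule, 3 for arginine, 2 for serine, 0 for metallothioneins, 13 for epithelial genes, 4 for WNT, 2 for Notch, 1 for cyclins D and inhibitors, 1 for HOX, 3 for cadherins, 3 for laminins, 1 for SLC6, 1 for GALNT and 0 for IGFBP, and members higher became 4 for chemokines, 0 for cadherins and 3 for protocadherins. Chromosome medians became 0.196 (7), 0.071 (9), 0.494 (15), 0.174 (19) and -0.344 (X).

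Leaving out each library in turn gave medians of -0.094 to -0.063 for the tricarboxylic acid cycle, 1.08 to 1.116 for interferon-stimulated genes, and, by chromosome, -0.007 to -0.001 (3), 0.244 to 0.272 (5), 0.196 to 0.216 (7), 0.084 to 0.092 (9) and -0.024 to 0.005 (22). Members at least 2-fold different were 1 to 2 for glycolysis (lower), 2 to 4 (higher) and 0 to 1 (lower) for the cell cycle, 0 to 1 for laminins (higher) and 1 to 2 for matrix metalloproteinases (higher). For the cell cycle the count of 2 came without HK2 replicate 2. Over all tested genes, same-numbered libraries did not deviate together (correlations of -0.0215, -0.0371 and -0.0471). Whether a part of the genes shared a batch was not tested. A fit with the replicate block called 10817 genes, 2961 of them with at least a 2-fold difference.

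Depth limits genes near 3 counts per library, where ratios carry wide counting intervals. With 3 dishes of 1 line on each side, nothing here separates the disease from the line.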
